A study of Mus musculus with 12 samples.

Results

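The 7 genes described here belong to the redox and hydrolytic arms of liver detoxification and were followed in 12 mouse livers: the quinone reductases Nqo1 and Nqo2, the carbonyl reductases Cbr1 and Cbr3, the aldehyde oxidase Aox1, and the epoxide hydrolases Ephx1 and Ephx2. The genes were chosen as enzymes of related function counted as responsive to the transcription factor NRF2, with earlier results of these data known. They were taken by symbol from the platform annotation, which listed 1 probe set for each of the 7, out of 12393 genes on the array. All 7 passed the filter on dim genes and were tested among 8469 genes. The livers came from males of the C57BL6/J strain aged 8 weeks, and there were 4 groups with 3 samples in each: liver-null for Txnrd1 given saline, wild-type given saline, liver-null given acetaminophen (APAP, 100 mg/kg into the peritoneum), and wild-type given APAP. Livers were taken 8 hours after the injection. Liver-null mice carried a conditional allele of Txnrd1, the gene of cytosolic thioredoxin reductase, that was disrupted by albCre, a Cre recombinase driven in hepatocytes, so the other cells of the liver keep the gene. The labels do not say whether wild-type mice carried the Cre or the conditional allele.

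These enzymes act on reactive carbonyls, quinones and epoxides that arise when the liver oxidises drugs, lipids and steroids. Quinone reductases reduce quinones to hydroquinones and so bypass the semiquinone radical, carbonyl reductases turn ketones and aldehydes into alcohols with NADPH, aldehyde oxidase oxidises aldehydes and nitrogen heterocycles with a molybdenum cofactor, and epoxide hydrolases add water to epoxides. Several of them, Nqo1 first among them, are classical targets of NRF2, a transcription factor that is released from its inhibitor KEAP1 when electrophiles or oxidants accumulate. APAP is oxidised in hepatocytes to a quinone imine that glutathione captures.

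The stretch just before the start site is shown for the 5 members that were higher in liver-null livers over both treatments, because these genes moved together across the livers. The sequences are from RefSeq, build GRCm38.p6, cover the 250 bases before the annotated start and are written 5′ to 3′ on the strand of the gene. They lie at chr8:107403206-107403455 on the minus strand for Nqo1, chr16:93607587-93607836 on the plus strand for Cbr1, chr16:93682969-93683218 on the plus strand for Cbr3, chr1:58029719-58029968 on the plus strand for Aox1 and chr1:181017570-181017819 on the minus strand for Ephx1. Capitals mark matches to GCGTG, the core bound by the aryl hydrocarbon receptor (AHR), and to TGANTCA, the type of site bound by AP-1, each searched on both strands.
Nqo1: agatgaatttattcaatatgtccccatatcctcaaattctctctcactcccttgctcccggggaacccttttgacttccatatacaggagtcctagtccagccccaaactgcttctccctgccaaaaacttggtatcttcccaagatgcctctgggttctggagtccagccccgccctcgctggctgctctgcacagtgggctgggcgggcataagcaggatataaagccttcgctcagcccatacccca
Cbr1: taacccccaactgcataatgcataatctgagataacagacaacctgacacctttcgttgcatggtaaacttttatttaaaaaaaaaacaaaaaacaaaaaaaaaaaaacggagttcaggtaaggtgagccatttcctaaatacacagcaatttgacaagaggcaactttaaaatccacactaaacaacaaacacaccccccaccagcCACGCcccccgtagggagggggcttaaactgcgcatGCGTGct
Cbr3: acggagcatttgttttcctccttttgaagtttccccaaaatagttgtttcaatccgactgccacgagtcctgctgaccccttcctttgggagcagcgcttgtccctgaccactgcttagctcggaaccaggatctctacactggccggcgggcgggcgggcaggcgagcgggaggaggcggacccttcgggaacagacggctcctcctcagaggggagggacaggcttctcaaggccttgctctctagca
Aox1: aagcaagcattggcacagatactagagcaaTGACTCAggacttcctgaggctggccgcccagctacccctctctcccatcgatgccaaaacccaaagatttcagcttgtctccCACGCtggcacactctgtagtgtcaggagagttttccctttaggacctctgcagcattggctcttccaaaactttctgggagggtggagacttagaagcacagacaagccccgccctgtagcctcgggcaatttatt
Ephx1: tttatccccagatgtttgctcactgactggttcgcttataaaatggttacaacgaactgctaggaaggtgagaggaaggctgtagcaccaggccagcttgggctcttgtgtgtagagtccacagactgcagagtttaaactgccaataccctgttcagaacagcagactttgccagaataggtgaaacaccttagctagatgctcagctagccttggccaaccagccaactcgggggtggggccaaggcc

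The core of the antioxidant response element, TGACNNNGC, which NRF2 binds with a small Maf protein, had no match on either strand in these windows or in those of Nqo2, and 10.2% of 32851 promoter windows of the same length held one. Sequence outside these windows was not searched, so the genes may hold such elements elsewhere. The AHR core stood at 2 places in the Cbr1 window and at 1 in that of Aox1, and also at 1 in each of the 2 windows listed for Nqo2, which did not rise, and 28.2% of all windows held it. TGANTCA matched in the Aox1 window only, 220 to 214 bases before the start, among the 6 members with an entry, and 6.75% of all windows held it. The 5 windows differed in base composition, with a GC content of 41.6% for Cbr1, 51.2% for Ephx1, 52.8% for Aox1, 53.2% for Nqo1 and 59.6% for Cbr3, against a median of 52.4% over all windows. Cbr1 and Cbr3 are neighbours on chromosome 16, with 0 other protein-coding genes between them in the RefSeq table, and their windows held 6 and 14 CpG dinucleotides.

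The arrays fell into a first set of 8 and a second set of 4 that the labels do not name, split at the largest gap in the arrays' upper quartile of log2 values (5.73 to 5.85 in the first set, 5.49 to 5.58 in the second). Each group had 1 array in the second set: liver-null saline 16, wild-type saline 10, liver-null APAP 17 and wild-type APAP 14, where the number is the one that ends the title of the sample. All titles also hold the words mouse 8, so these numbers name samples here and are not taken as numbers of mice. Array medians lay between 2.91 and 2.99. Txnrd1 itself did not fall on its expressed probe set, which read 10.26, 10.47 and 10.32 in liver-null saline livers and 9.43, 9.58 and 9.81 in wild-type saline livers. After APAP it read 10.37, 10.38 and 10.58 in liver-null livers and 9.76, 9.59 and 9.70 in wild-type livers, and over both treatments it was higher by 0.75 (adjusted p = 0.000858, limma). The other Txnrd1 probe sets had group means of 1.40 to 2.00, below every array median, and slightly lower in liver-null than in wild-type groups. The position of the expressed probe set, inside or outside what the Cre removes, was not analysed here. Txnrd1 therefore does not check the genotype labels, and liver-null below means livers labelled so. The hepatocyte genes Alb, Apoa1, Ttr, Cps1 and Tat read 10.68 or above on every array. The mean over these 5 was 12.70 to 12.73 in liver-null saline livers, against 12.78 to 12.98 in wild-type saline livers, and 12.77 to 12.85 against 12.73 to 12.91 after APAP. The mean over 5 monocyte and neutrophil markers was 4.01 to 5.65 in liver-null saline livers, against 3.01 to 4.31 in wild-type saline livers. After APAP that mean was 3.96 to 4.12 in liver-null livers, inside the range of 3.13 to 5.03 in wild-type livers. The part of these markers in the results below was not tested.

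In the livers labelled liver-null, 5 of the 7 genes rose over both treatments and after APAP: Nqo1, Cbr1, Cbr3, Aox1 and Ephx1. In saline alone Nqo1, Aox1 and Ephx1 passed the test. Over both treatments Nqo1 was 9.56-fold higher, Cbr1 3.26-fold, Aox1 2.60-fold and Ephx1 1.78-fold. The fitted fold of Cbr3 was 63.6, with 38.7 without wild-type saline 8 and 96.1 without wild-type saline 10. It rests on wild-type values of which 3 of 6 lay below the array median, with no detection calls to place them above background, so its size is uncertain. Nqo2 and Ephx2 did not pass the test in any of the 3 genotype comparisons, and all of their fitted differences were below 0. For each of the 5 genes, all 6 liver-null livers lay above all 6 wild-type livers. The plot of single values shows the split.

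**Figure D1:**
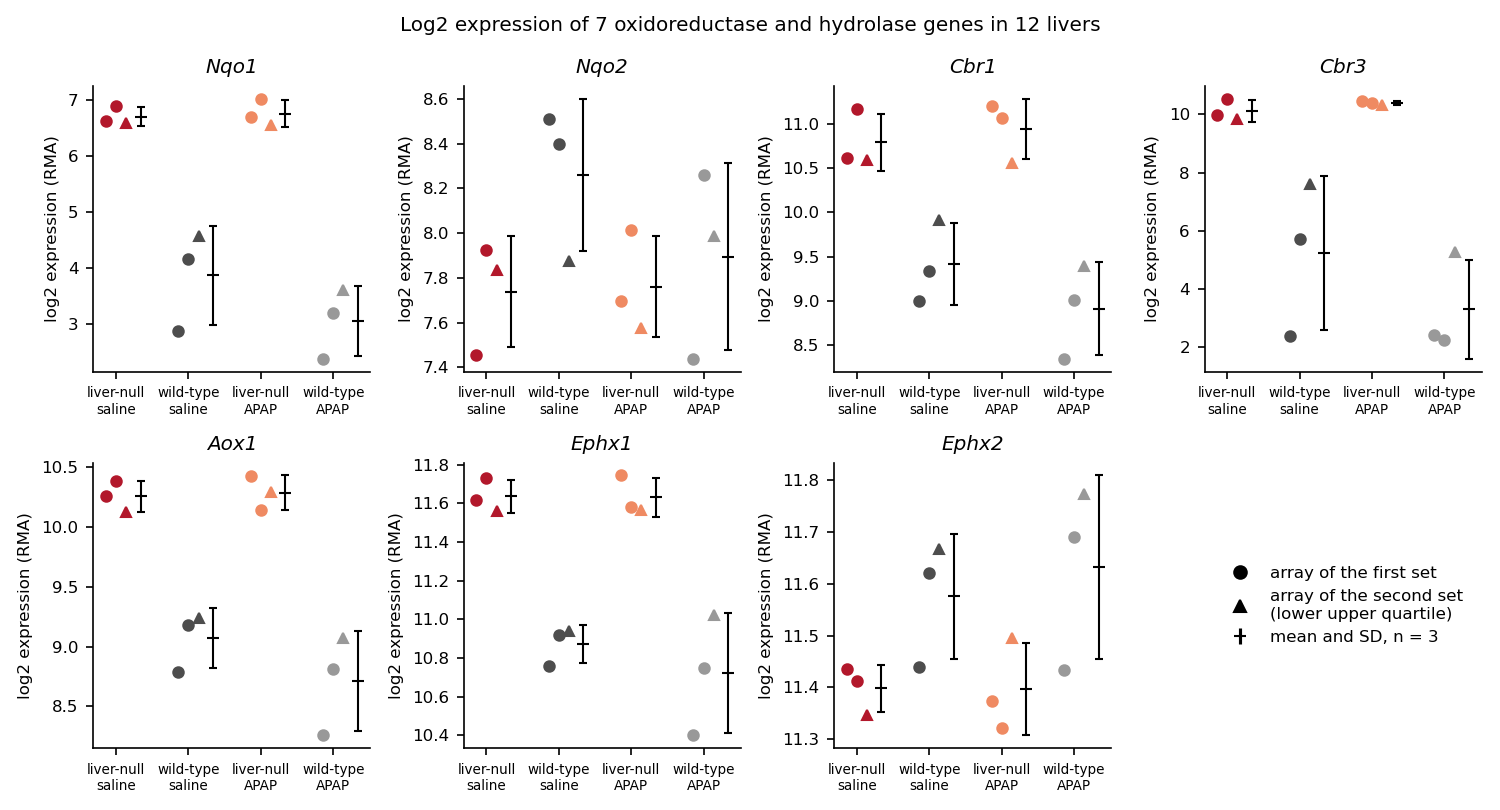
Log2 expression of each gene in each liver, by group. Circles are arrays of the first set, triangles arrays of the second set, and the bars give the mean and SD of 3 livers. For Nqo1, Cbr1, Cbr3, Aox1 and Ephx1, every liver-null liver lies above every wild-type liver, whereas Nqo2 values of the genotypes overlap.

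Nqo1, the main NAD(P)H quinone reductase, read 6.63, 6.90 and 6.58 on the log2 scale in liver-null saline livers, against 2.88, 4.17 and 4.58 in wild-type saline livers. After APAP it read 6.70, 7.02 and 6.55 in liver-null livers, against 2.39, 3.20 and 3.61 in wild-type livers. The groups did not overlap in either treatment, the 6 liver-null values spanned less than 1 log2 unit, and 2 wild-type values, those of saline liver 8 and APAP liver 12, lay below the median of their array. The difference was 2.83 in saline (SE 0.39, 7.09-fold, adjusted p = 0.0127, n = 3 per group, limma across 8469 genes) and 3.69 after APAP (SE 0.39, 12.9-fold, adjusted p = 0.00219). Averaged over the treatments it was 3.26 (SE 0.28, adjusted p = 0.000223). In saline Nqo1 missed the threshold without liver-null saline 5 (difference 2.73, adjusted p = 0.0534) and in a fit to the 6 saline arrays alone (2.83, adjusted p = 0.0529).

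Nqo2 is the sister enzyme of Nqo1 and takes its electrons from dihydronicotinamide riboside in place of NADPH. It read 7.46, 7.92 and 7.84 in liver-null saline livers, against 8.51, 8.40 and 7.88 in wild-type saline livers. After APAP the values were 7.69, 8.01 and 7.58 in liver-null livers, against 7.44, 8.26 and 7.99 in wild-type livers. The groups overlapped in both treatments. The difference was -0.52 in saline (95% confidence interval -1.03 to -0.01, adjusted p = 0.393) and -0.13 after APAP (-0.65 to 0.38, adjusted p = 0.999, limma). With array weights the saline difference, at -0.52, passed (adjusted p = 0.0487), and it did not in any other alternative. The weights ran from 0.36 for wild-type saline 10 to 4.63 for wild-type saline 9, so single arrays carry much of that fit.

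Cbr3 is a carbonyl reductase of the same family as Cbr1. It read 9.99, 10.53 and 9.84 in liver-null saline livers, against 2.37, 5.71 and 7.62 in wild-type saline livers, a spread of more than 5 log2 units among the 3 wild-type livers. After APAP it read 10.48, 10.39 and 10.33 in liver-null livers, against 2.40, 2.23 and 5.27 in wild-type livers. The groups did not overlap, and 3 wild-type values, those of saline liver 8 and APAP livers 12 and 13, lay below the array median. Whether such values lie above background is not known, so the differences of Cbr3 are fitted values whose size depends on them. The saline difference was 4.89 (SE 1.09) and did not pass (adjusted p = 0.0674), and it was 3.45 without wild-type saline 8. It passed without wild-type saline 10 (6.08, adjusted p = 0.0238) and with array set as a covariate (4.89, adjusted p = 0.0272, limma).
After APAP the difference of 7.10 passed (SE 1.09, adjusted p = 0.0108). It missed without wild-type APAP 12 (6.65, adjusted p = 0.0572), wild-type APAP 13 (6.56, adjusted p = 0.0573), liver-null APAP 2 (7.06, adjusted p = 0.0586) or liver-null APAP 3 (7.10, adjusted p = 0.0552), and was 8.08 without wild-type APAP 14. The average over the treatments was 5.99 (SE 0.77, adjusted p = 0.00153), with 5.28 without wild-type saline 8 and 6.59 without wild-type saline 10.

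Cbr1 is the broadly expressed carbonyl reductase that also acts on prostaglandins and anthracyclines. It read 10.62, 11.17 and 10.60 in liver-null saline livers, against 9.0, 9.34 and 9.91 in wild-type saline livers, and 11.20, 11.07 and 10.56 in liver-null APAP livers, against 8.34, 9.0 and 9.39 in wild-type APAP livers. The genotypes did not overlap in either treatment. The saline difference of 1.38 (SE 0.30, 2.60-fold) did not pass (adjusted p = 0.0623), but passed without wild-type saline 10 (1.63, adjusted p = 0.0372) and with array set as a covariate (adjusted p = 0.041, limma).
After APAP the difference was 2.03 (SE 0.30, 4.09-fold, adjusted p = 0.0103). Cbr1 lost that call without liver-null APAP 2 (1.90, adjusted p = 0.0586) or liver-null APAP 3 (1.97, adjusted p = 0.0531). Cbr1 and Cbr3 encode closely related proteins, and whether their probe sets bind each other's transcripts was not analysed here.

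Aox1, aldehyde oxidase, read 10.26, 10.38 and 10.13 in liver-null saline livers, against 8.78, 9.18 and 9.24 in wild-type saline livers. After APAP it read 10.43, 10.14 and 10.30 in liver-null livers, against 8.26, 8.81 and 9.07 in wild-type livers. No liver of one genotype reached the range of the other. The difference was 1.19 in saline (SE 0.20, 2.28-fold, adjusted p = 0.0206) and 1.58 after APAP (SE 0.20, 2.98-fold, adjusted p = 0.00424, limma). In saline the call was lost without wild-type saline 8 (1.04), wild-type saline 9 (1.24), liver-null saline 4 (1.19) or liver-null saline 5 (1.12), with adjusted p between 0.0777 and 0.105. After APAP it held without any 1 of the 6 arrays.

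Ephx1, the microsomal epoxide hydrolase that detoxifies epoxides of aromatic compounds and drugs, had the smallest called difference of the 5. It read 11.62, 11.73 and 11.56 in liver-null saline livers, against 10.76, 10.92 and 10.94 in wild-type saline livers, and 11.74, 11.58 and 11.57 in liver-null APAP livers, against 10.40, 10.75 and 11.02 in wild-type APAP livers. Again the genotypes did not overlap. The difference was 0.76 in saline (SE 0.15, 1.70-fold, adjusted p = 0.0466) and 0.91 after APAP (SE 0.15, 1.87-fold, adjusted p = 0.0146, limma). The saline call was lost without any 1 of the 6 arrays, with differences of 0.71 to 0.80 and adjusted p of 0.0569 to 0.204, and the APAP call without wild-type APAP 13 (0.92), liver-null APAP 2 (0.85) or liver-null APAP 3 (0.93). Ephx1 also missed the threshold when only the 6 arrays of a treatment were fitted (adjusted p = 0.0829 in saline and 0.107 after APAP), with arrays centred on the 75th percentile (0.105 in saline and 0.0787 after APAP), and in saline within the first array set (0.0533, limma).

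Ephx2, the soluble epoxide hydrolase that opens fatty acid epoxides, read 11.43, 11.41 and 11.35 in liver-null saline livers, against 11.44, 11.62 and 11.67 in wild-type saline livers. After APAP it read 11.37, 11.32 and 11.49 in liver-null livers, against 11.43, 11.69 and 11.77 in wild-type livers. The saline groups lay next to each other without overlapping and the APAP groups overlapped. The difference was -0.18 in saline (95% confidence interval -0.44 to 0.08, adjusted p = 0.643) and -0.24 after APAP (-0.49 to 0.02, adjusted p = 0.627), and -0.21 over both (-0.39 to -0.02, adjusted p = 0.223, limma). The averaged difference, at -0.24, passed with array weights (adjusted p = 0.025), a fit that leans on single arrays as given for Nqo2.

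**Figure D2:**
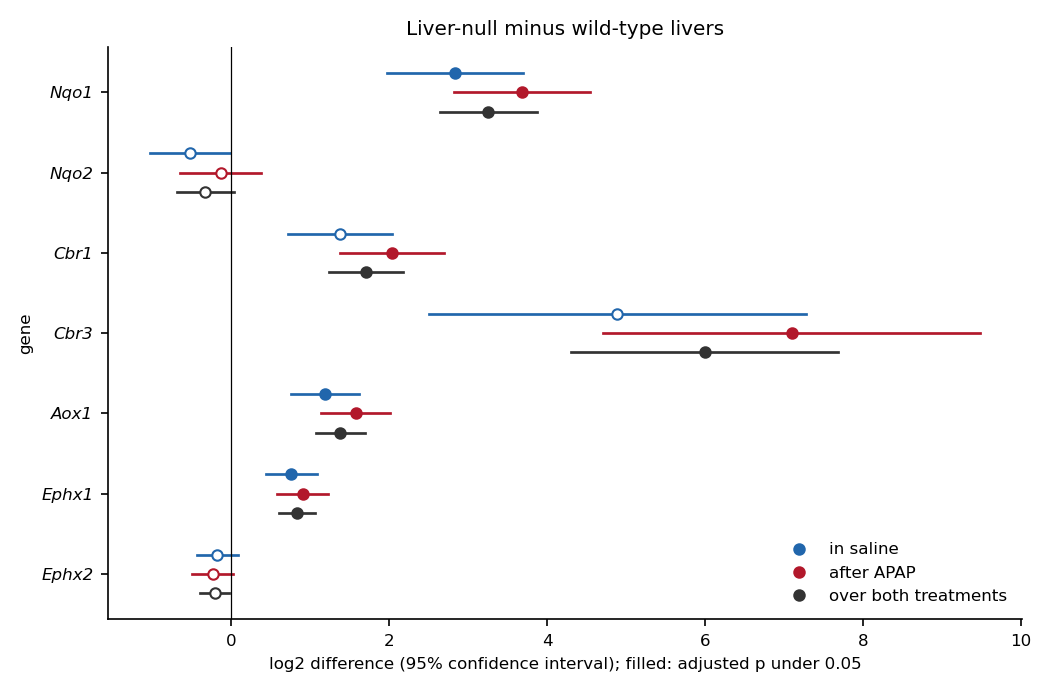
Fitted log2 difference of each gene, liver-null minus wild-type, in saline, after APAP and averaged over both, with 95% confidence intervals from limma. Filled points have an adjusted p under 0.05. Cbr3 has the largest difference (4.89 in saline, 7.10 after APAP) and the widest interval, and Nqo2 and Ephx2 have open points below 0, from -0.52 to -0.13.

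Counted over the members, 3 of 7 genes rose in saline and 0 fell, where 0.638% of all 8469 genes passed in either direction. After APAP 5 of 7 rose, against 0.768% of all genes, and over both treatments 5 of 7 rose, against 4.46%. The saline arrays of the genotypes did not overlap for 6 of 7 members and for 15.2% of all genes, the APAP arrays for 5 of 7 and 13.9%, and all 12 arrays for 5 of 7 and 4.36%. The median difference of the 7 was 1.19 in saline, 1.58 after APAP and 1.38 over both, against medians of all tested genes of -0.03, -0.0027 and -0.01. With array set as a covariate 5 of 7 rose in saline too. The 7 were chosen with earlier results of these data known, so these counts are not independent evidence of a rise. The 7 leave out Cbr4 (0.16 over both treatments, adjusted p = 0.601, limma) and Aox3, which fell and is described below. In bulk tissue, a change in the number of expressing cells and a change in RNA per cell cannot be told apart.

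The differences were smaller in the second set of arrays. Over both treatments the difference of Cbr3 was 7.17 among arrays of the first set and 3.64 among those of the second, that of Nqo1 3.65 and 2.47, that of Cbr1 2.09 and 0.93, that of Aox1 1.54 and 1.06, and that of Ephx1 0.96 and 0.58. All 5 were above 0 in each set and each treatment. The second set holds 1 array per group, so it gives values with no test, and what sets the arrays apart was not tested.

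Ratios between members of an enzyme family differed between the genotypes as the single genes did. They are given as descriptions with no test, since the pairs were chosen with the genotype differences known. The log2 ratio of Nqo1 to Nqo2 within each liver was -1.02 ± 0.14 in liver-null livers and -4.61 ± 0.82 in wild-type livers (SD, n = 6 each), a difference of 3.58. The ratio of Cbr3 to its neighbour Cbr1 was -0.61 ± 0.19 in liver-null livers and -4.89 ± 1.82 in wild-type livers, a fitted difference of 4.29 that was 3.67 to 4.76 without 1 liver and holds the same wild-type Cbr3 values of unknown detection. The ratio of Ephx1 to Ephx2 was 0.24 ± 0.11 in liver-null livers and -0.81 ± 0.15 in wild-type livers, a difference of 1.04. These ratios compare 2 probe sets within an array, so only their change between the genotypes carries meaning.

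Aox3, the gene next to Aox1 on chromosome 1 and the other aldehyde oxidase tested, went the other way. It averaged 10.72 ± 0.09 in liver-null saline livers, against 11.35 ± 0.22 in wild-type ones, and after APAP 10.96 ± 0.18 in liver-null livers, against 11.19 ± 0.14 in wild-type livers (SD, n = 3 each). Over both treatments Aox3 fell, with a difference of -0.42 (SE 0.10, adjusted p = 0.038, limma), while neither treatment alone passed (adjusted p = 0.0758 in saline and 0.772 after APAP). The ratio of Aox1 to Aox3 was -0.57 ± 0.19 in liver-null livers and -2.37 ± 0.41 in wild-type livers, a difference of 1.81.

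APAP itself left no member past the threshold. In liver-null livers 5 of the 7 fitted differences, APAP minus saline, were above 0, and in wild-type livers 6 of 7 were below 0, but 0 of 7 passed in either genotype (limma), and 0 of 7 had an unadjusted p under 0.05. Of all 8469 genes, 0% passed in liver-null livers, 0% in wild-type livers and 0% for the interaction, with 59, 143 and 109 genes at an unadjusted p under 0.05. Each count is lower than a threshold of 0.05 would give on average over 8469 genes if no gene differed. The reason was not tested, and the absence of calls does not show that APAP had no effect. The APAP and saline arrays overlapped for all 7 members in each genotype, where 4.89% of all genes separated in liver-null livers and 5.02% in wild-type livers.

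The fit used 1 spread per gene for all 4 groups, so intervals in liver-null livers also reflect the spread of wild-type livers. For Cbr3 the SD was 0.36 in liver-null saline and 0.07 in liver-null APAP livers, against 2.65 and 1.71 in wild-type ones. For Nqo1 it was 0.17 and 0.24, against 0.89 and 0.62. For Cbr3 the APAP difference was 0.28 in liver-null livers (95% confidence interval -2.11 to 2.66) and -1.93 in wild-type livers (-4.32 to 0.45). The value in wild-type livers was -3.36 without wild-type saline 8 and -0.74 without wild-type saline 10, and it rests in part on values below the array median. Nqo1 had 0.05 (-0.81 to 0.91) in liver-null livers and -0.81 (-1.67 to 0.05) in wild-type livers. Cbr1 had 0.15 (-0.51 to 0.81) in liver-null livers and -0.50 (-1.16 to 0.16) in wild-type livers. Aox1 had 0.03 (-0.40 to 0.47) in liver-null livers and -0.36 (-0.79 to 0.08) in wild-type livers. None of these genes separated APAP from saline livers in either genotype. For Ephx1 and Ephx2 the intervals were narrower: those in liver-null livers ran from -0.33 to 0.32 and from -0.26 to 0.26.

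**Figure D3:**
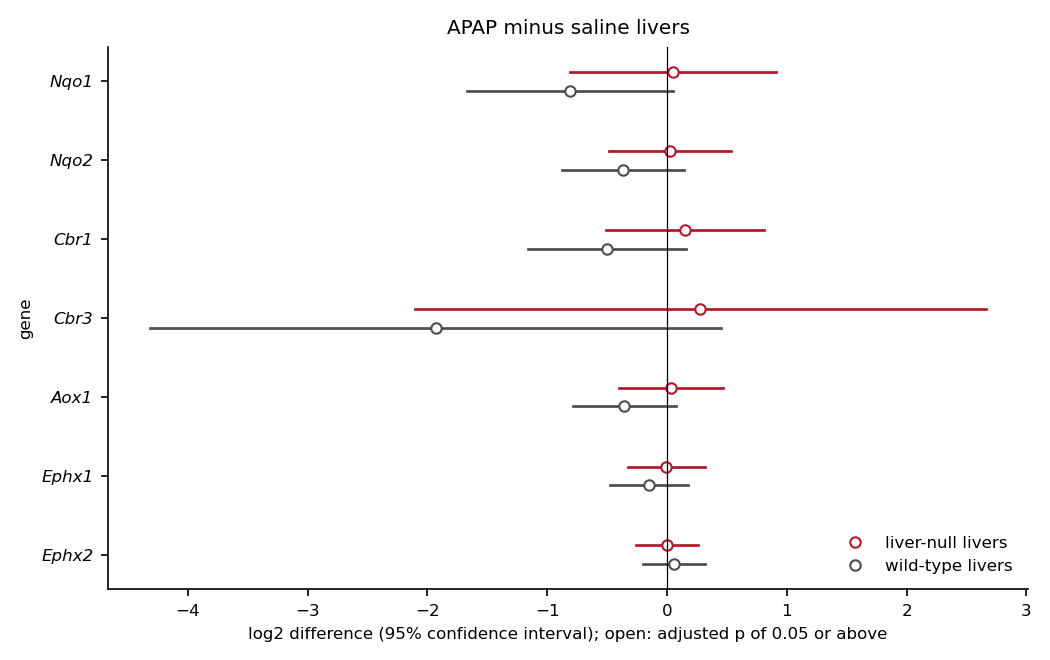
Fitted log2 difference of each gene, APAP minus saline, in liver-null livers (upper point of each pair) and wild-type livers (lower point), with 95% confidence intervals from limma. No point is filled, since no member passed, and every interval crosses 0.

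The interaction, the APAP effect in liver-null livers minus that in wild-type livers, was above 0 for 6 of 7 members and passed for 0 (limma, 0 of 7 at an unadjusted p under 0.05). It was 2.21 for Cbr3 (95% confidence interval -1.16 to 5.58), 0.86 for Nqo1 (-0.36 to 2.08), 0.65 for Cbr1 (-0.28 to 1.59) and 0.39 for Aox1 (-0.22 to 1.00). All 4 intervals span 0, and the value of Cbr3 was 1.02 to 3.64 without 1 array. The genotype and APAP comparisons share arrays and are not independent of each other.

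Genotype accounted for most of the variation of the 5 higher genes over the 12 livers: 90.1% of the sum of squares for Nqo1, 88.6% for Aox1, 88.2% for Ephx1, 82.6% for Cbr1 and 80.6% for Cbr3. For Nqo2 it was 24.3%, with 60.5% lying within groups, and for Ephx2 52.5%. Treatment accounted for 0.76% to 1.53% in the 5 genes and for 6.63% in Nqo2. The 5 genes were picked by their genotype difference on these same arrays, so large genotype shares follow from that choice. Shares over all tested genes were not computed.

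What remained within groups was shared between members. In wild-type saline livers liver 8 had the lowest and liver 10 the highest value for 6 of 7 members, all but Nqo2. In wild-type APAP livers liver 14 was highest for the same 6 members, and liver 12 was lowest for 6 of 7, all but Cbr3. In liver-null saline livers liver 16 was lowest for 6 of 7, all but Nqo2, and liver 5 was highest for 6 of 7, all but Ephx2. In liver-null APAP livers liver 17 was lowest for 5 of 7, and liver 2 was highest for Cbr1, Cbr3, Aox1 and Ephx1. Livers 10, 14, 16 and 17 are on arrays of the second set, so those arrays were mostly highest in wild-type groups and lowest in liver-null groups. The part of the array set in this pattern was not tested.

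**Figure D4:**
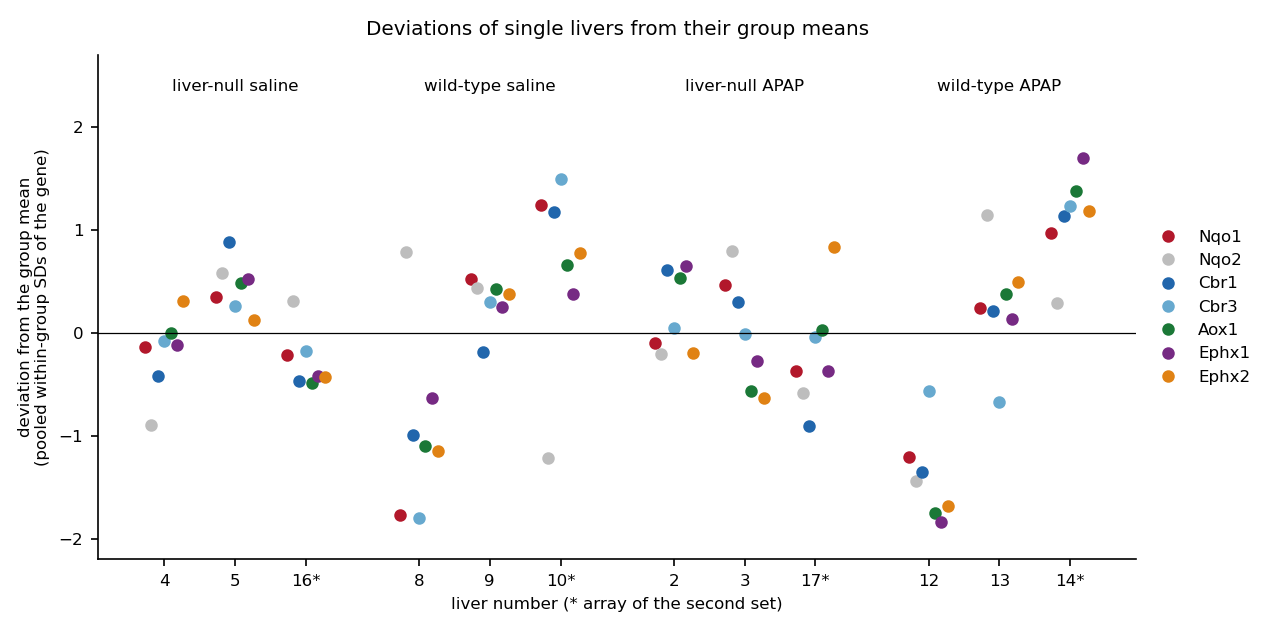
Deviation of each liver from its group mean, in pooled within-group SDs of the gene, for the 7 genes. Stars mark arrays of the second set. Points of 1 liver tend to lie on the same side of 0 in wild-type livers, low in livers 8 and 12 and high in livers 10 and 14, with Nqo2 apart in livers 8 and 10.

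Across the 12 livers the Pearson correlations among the 5 higher genes were 0.95 to 0.99. With group means removed they were 0.64 for Cbr3 with Ephx1 to 0.95 for Aox1 with Ephx1. Ephx2, which correlated with Aox1 at -0.53 over all livers, correlated with it at 0.91 once group means were removed. Nqo2 correlated with the other members at -0.32 to 0.32 within groups. These values describe 12 arrays that share array set and processing, and they carry no test.

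Over the 12 livers, tested genes outside the family were ranked by how closely their values ran with each member. The 3 closest to Nqo1 were the microsomal glutathione transferase Mgst3 (Pearson r = 0.98), the glutathione transferase Gstm3 (0.98) and ferritin heavy chain Fth1 (0.97). Gstm4 led for Cbr1 (0.98), Aox1 (0.99) and Ephx1 (0.99), and Gstm3 was among the 3 closest to each of the 5. Cbr3 ran closest to the biliverdin reductase Blvrb (0.98) and the lipid droplet gene Fitm1 (0.97). Nqo2 ran closest to the aminoacylase Acy3 (0.94) and Ephx2 to Tsc22d1 (0.93). Correlations over the 12 livers include the difference between the genotypes. With group means removed, those with Nqo1 were 0.74 for Mgst3, 0.76 for Gstm3 and 0.89 for Fth1. Those with Cbr3 were then 0.91 for Blvrb, 0.81 for Fitm1 and 0.74 for Gstm3. Gstm4 had 0.86 with Cbr1, 0.88 with Aox1 and 0.96 with Ephx1.

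Of 22 other tested reductases and hydrolases of carbonyls, quinones and epoxides, 2 rose over both treatments, the xylulose reductase Dcxr (1.36-fold) and the aldehyde reductase Akr1a1 (1.24-fold), and 2 fell, Aox3 and the steroid reductase Hsd11b1 (difference -0.33), with a median difference of 0.09. These are 18.2% of the list, where 4.46% of all genes passed. In saline or after APAP alone 0 of the 22 passed (limma), with 7 and 8 at an unadjusted p under 0.05. Of 5 genes that supply the molybdenum cofactor of aldehyde oxidase, 1 rose over both treatments, Mocos, which sulfurates the cofactor (1.47-fold, adjusted p = 0.0244), and the median was 0.06.

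Among 30 other tested NRF2 targets, 10 rose in saline, 13 after APAP and 19 over both treatments, and 0 fell in any of these, with medians of 0.68, 0.96 and 0.84. The called genes are 33.3%, 43.3% and 63.3% of the list, where 0.638%, 0.768% and 4.46% of all genes passed. Mgst3 (5.41-fold over both), Gstm3 (3.79-fold) and glutathione reductase Gsr (1.82-fold) had the smallest adjusted p among them. Of 10 genes that regulate NRF2, 1 changed over both treatments, which is 10% of the list, where 4.46% of all genes passed. It was Nfe2l2, the gene of NRF2, which fell (difference -0.76, SE 0.11, adjusted p = 0.00418, limma). Both lists were drawn up with the rise of NRF2 targets in these livers known and are not independent evidence of it.

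Nqo1 is also a target of AHR, Ephx1 of the xenobiotic receptors CAR and PXR, and Ephx2 of PPAR-alpha. Of 4 tested genes of AHR and its targets, 0 changed over both treatments and 0 had an unadjusted p under 0.05 (limma), with a median of 0.03. Of 14 tested genes of CAR, PXR and their targets, 0 changed, 6 had an unadjusted p under 0.05, and the median was 0.11. Of 17 tested genes of PPAR-alpha and its targets, 2 rose, the pantetheinase Vnn1 (2.37-fold) and Pex11a (1.92-fold), and 1 fell, Cyp4a31 (difference -0.93), with a median of -0.12. These are 17.6% of that list, and 8 of the 17 had an unadjusted p under 0.05. Of 11 P450 genes whose enzymes form epoxides, 1 rose, Cyp2c38 (2.91-fold), which is 9.09%, and 4 had an unadjusted p under 0.05. Of all 8469 genes, 4.46% passed over both treatments and 1440 had an unadjusted p under 0.05 (limma).

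Markers of other liver cells did not pass the test over both treatments: 0 of 9 tested macrophage markers, 0 of 6 endothelial, 0 of 7 stellate, 0 of 4 monocyte and neutrophil, 0 of 2 cholangiocyte, 0 of 2 T and B cell and 0 of 1 proliferation markers (limma), with 1 macrophage, 1 endothelial and 1 stellate marker, and 0 of the others, at an unadjusted p under 0.05. Hepatocyte markers passed for 0 of 5, with 1 at an unadjusted p under 0.05. In saline alone 0 of these markers passed either (limma), with 2 of 7 stellate, 1 macrophage, 1 endothelial and 1 hepatocyte marker at an unadjusted p under 0.05, and after APAP 0 passed and 0 were under 0.05 unadjusted. Of all 8469 genes, 4.46% passed over both treatments, 0.638% in saline and 0.768% after APAP. At such shares, 0 calls in lists this short say little about the numbers of these cells. The 4 tested monocyte and neutrophil markers had a median difference of 0.65 in saline and -0.13 after APAP. The stellate markers had a median difference of -0.33 in saline, and their mean over the list was 4.73 to 5.15 in liver-null saline livers, against 5.06 to 5.56 in wild-type saline livers. After APAP that mean was 4.82 to 5.15 in liver-null livers, against 5.0 to 5.28 in wild-type livers, and its part in the results was not tested.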

How the data were processed

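The 12 samples are taken as livers of separate mice, with 1 Affymetrix array each; the titles do not settle this, and if it does not hold, p-values measure a spread that is partly technical. The values are log2 expression per probe set, deposited by the authors and made with RMA, per the submitters' processing notes; its version and the arrays it was run over are not stated there. The file holds 22690 probe sets with no detection calls, and no further normalization was applied. Gene symbols came from the platform annotation. Of several probe sets for 1 gene, that with the highest mean was used. Genes below the 40th percentile of an array on more than 9 of the 12 were set aside, which left 8469 of 12393 genes.

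The test was limma 3.58.1 (R 4.3.3) with a mean for each of the 4 groups (8 residual and 3.43 prior degrees of freedom), two-sided, and a gene was called where its p, adjusted by Benjamini-Hochberg over all tested genes, was under 0.05. SE is that of the fitted difference. Adjusted p-values come from this fit except where stated. A run on simulated data checked only that fitted differences came near the simulated ones. Its errors were independent and held no array sets, so it does not check the p-values of these arrays. Alternatives changed the arrays used, array set, weights, filter, probe set choice, scaling and variance model. Genotype averaged over the treatments used all 12 arrays. Likeness was the Pearson correlation over 12 livers. All 7 members were always named; from lists, up to 3 changed genes a direction. The members, lists, comparisons and alternatives were chosen with earlier results of these data known. Precision is limited by the number of arrays.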

Additional observations from a re-analysis of the deposited data

How the results depend on the processing

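No paired analysis was possible because no sample number is shared between groups. Of 7 members, 3 were called in saline, and all 3 rose. The number called was 1 when only the 6 saline arrays were fitted (Aox1) and 5 with array set as a covariate. With array weights, which ran from 0.36 to 4.63 over the arrays, it was 6, among them Nqo2, which was called lower (-0.52). With array set and quantile normalization together, an alternative chosen after seeing the data, it was 5. Leaving out 1 array gave 0 to 4 in saline and 2 to 5 after APAP, where 5 rose. Over both treatments it was 5 without any 1 of the 12 arrays. In the APAP and interaction comparisons it was 0 in all alternatives, while 1 gene of the whole array was called for APAP in liver-null livers within the first set. No called difference of a member changed sign under any alternative run. The genotype differences of the 4 ratios of related genes stayed above 0 without any 1 liver. That outcome was fixed in advance, since no ratio overlapped between the genotypes and the pairs were chosen with the differences known. The number of all genes called moved more: from 54 in saline to 19 with the 6 arrays alone, 243 with array set, 117 within the first set, 1323 with array weights, 89 with every probe set, 104 with quantile normalization, 121 with a trended robust fit, 225 with array set and quantile normalization (105 higher and 120 lower, where it was 31 and 23), and 10 to 92 without 1 array. After APAP it was 65, against 39 with the 6 arrays alone, 185 with array set, 210 with array weights, 109 with every probe set, 98 with a trended robust fit, 185 with array set and quantile normalization (117 higher and 68 lower, where it was 49 and 16), and 21 to 59 without 1 array. Over both treatments it was 378, against 882 with array set, 1409 with array weights, 590 with quantile normalization, 924 with array set and quantile normalization, and 208 to 416 without 1 array. The cause was not tested. The table has no detection calls, so how far low Nqo1 and Cbr3 values lie above background is unknown.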
